A study of Mus musculus with 12 samples.

Results

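The SOCS family of suppressors of cytokine signalling has 8 genes in the mouse, *Cish* and *Socs1* to *Socs7*. They were picked by their gene symbols. All 8 are among the 24439 gene names in the deposited RNA-Seq tables, and all 8 were among the 12442 genes kept at over 1 TPM (a share of the transcripts in a library, corrected for their length) in at least 1 library. The 12 libraries come from splenic CD4 T cells of C57BL/6 C42 mice, a line which carries a transgene of the human *IL3* and *CSF2* locus. Age and sex are not given in the sources used here. Every group shares the same history, in which cells isolated with CD4 magnetic beads were turned into T blasts (TB) by 40 h in concanavalin A at 2 µg/ml and were then expanded in IL-2 at 50 U/ml. TB IL-2 cells were kept in IL-2 for a further 16 h and TB IL-2nil cells spent these 16 h without it. TB+ IL-2 and TB+ IL-2nil cells had the same cultures followed by 2 h of PMA at 20 ng/ml and calcium ionophore at 2 µM (PMA/I), a mixture which mimics signalling from the T cell receptor. The methods of the study name the medium IMDM for the 2 h of PMA/I and do not say whether IL-2 was present in it. There are 3 libraries in each group. The labels do not say whether these are separate animals or cultures, so P-values measure only the spread between these samples.

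IL-2 binds a receptor made of alpha, beta and gamma chains, which activates the kinases JAK1 and JAK3 and the transcription factors STAT5A and STAT5B. STAT5 in turn switches on genes of SOCS proteins, which bind receptors or JAKs through an SH2 domain and, through a SOCS box, recruit a ubiquitin ligase built on elongins B and C and cullin 5. The best known members for cytokine feedback are CIS (*Cish*), which occupies STAT5 docking sites on receptors, SOCS1 and SOCS3, which inhibit JAKs directly, and SOCS2, a brake on growth hormone signalling. SOCS4 and SOCS5 have been tied to the EGF receptor, and SOCS6 and SOCS7 to insulin signalling.

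Promoter sequences of RefSeq (250 bases before to 50 after the start, GRCm38.p6) could be matched for 4 members, *Cish*, *Socs1*, *Socs3* and *Socs4*. The first 3 are shown because the effect of IL-2 on these genes differed with PMA/I in the test given below. They are written on the strand of the gene, and capitals mark matches to TTCNNNGAA, the palindrome bound by STAT dimers.
*Cish*, chr9:107296409-107296708, plus strand: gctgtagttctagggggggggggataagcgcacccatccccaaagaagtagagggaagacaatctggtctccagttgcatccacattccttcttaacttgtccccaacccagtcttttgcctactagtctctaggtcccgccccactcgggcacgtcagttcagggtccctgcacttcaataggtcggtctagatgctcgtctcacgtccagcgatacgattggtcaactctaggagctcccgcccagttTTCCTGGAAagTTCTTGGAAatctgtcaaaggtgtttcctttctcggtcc
*Socs1*, chr16:10785487-10785786, minus strand: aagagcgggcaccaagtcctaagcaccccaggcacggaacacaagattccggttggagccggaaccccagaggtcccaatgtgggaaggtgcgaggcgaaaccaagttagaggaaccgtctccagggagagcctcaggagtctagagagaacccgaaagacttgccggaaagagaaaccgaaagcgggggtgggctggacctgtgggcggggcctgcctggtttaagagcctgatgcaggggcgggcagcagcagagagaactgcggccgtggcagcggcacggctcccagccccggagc
*Socs3*, chr11:117969317-117969616, minus strand: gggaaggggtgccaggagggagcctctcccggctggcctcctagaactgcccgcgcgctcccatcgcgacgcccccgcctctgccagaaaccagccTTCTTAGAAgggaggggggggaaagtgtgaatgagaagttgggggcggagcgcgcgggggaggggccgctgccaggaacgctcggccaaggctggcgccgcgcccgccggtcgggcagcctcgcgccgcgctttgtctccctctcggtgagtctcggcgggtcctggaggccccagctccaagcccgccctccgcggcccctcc
The *Cish* window held 2 matches, at bases 251 to 259 and 262 to 270, and the *Socs3* window held 1, at bases 97 to 105. The windows of *Socs1* and *Socs4* held none. Of 32851 RefSeq promoter windows of this length, 8.30% held at least 1 match and 0.457% held 2 or more. TGANTCA, the AP-1 motif, had no match in these 4 windows and was present in 7.81% of all windows. Both motifs read the same on both strands, and no match of one overlapped a match of the other. A match is a description of these letters only, since binding was not measured in the libraries used here.

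The deposited values are FPKM, which sum to 193815 to 420487 per library and come without read counts. Every TPM value below comes from them by a fixed sum per library, followed by scaling of the 75th percentile to one level. The steps between low values gave a relative depth of 0.409 to 1.25, lowest in TB IL-2nil replicate 2. The libraries labelled TB IL-2nil replicate 3 and TB+ IL-2 replicate 3 go against their labels. In the study's own list of changed genes each of the 12 columns was met by a single library for 97.1% or more of its values, and 10 of these libraries were those of the same label, while these 2 stood in each other's place. The matches were sought within 0.1% on TPM after quantile normalization, and not after the scaling of the 75th percentile that the study's methods name. Both libraries are placed here as in that list, so that TB+ IL-2 holds the library labelled TB IL-2nil replicate 3 and the reverse, and results are also given without both and as labelled. The 6 CD4 T cell markers summed to 1425 to 1482 TPM in TB IL-2, 2210 to 2414 TPM in TB IL-2nil, 1356 to 1512 TPM in TB+ IL-2 and 1805 to 2122 TPM in TB+ IL-2nil. The 4 B cell markers summed to 23.2 to 29.6 TPM in TB IL-2nil and to 2.36 to 12.7 TPM elsewhere. All 3 NK cell markers were below the limit of 1 TPM, and the 3 of 5 myeloid markers kept summed to at most 4.88 TPM. The regulatory T cell markers *Foxp3*, *Ikzf2* and *Lrrc32* summed to 31.4 to 68.7 TPM in TB IL-2 and to at most 17.1 TPM elsewhere, with *Lrrc32* at 30.1 to 67.1 TPM and *Ikzf2* at 0.759 to 2.73 TPM in TB IL-2. *Foxp3*, the defining marker, was at 0.0807 to 1.68 TPM in all 12 libraries. The 2 CD8 T cell markers summed to 6.91 to 31.9 TPM, with overlap between all groups. In bulk RNA, fewer cells of a type and less RNA per cell cannot be told apart.

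**Figure D1:**
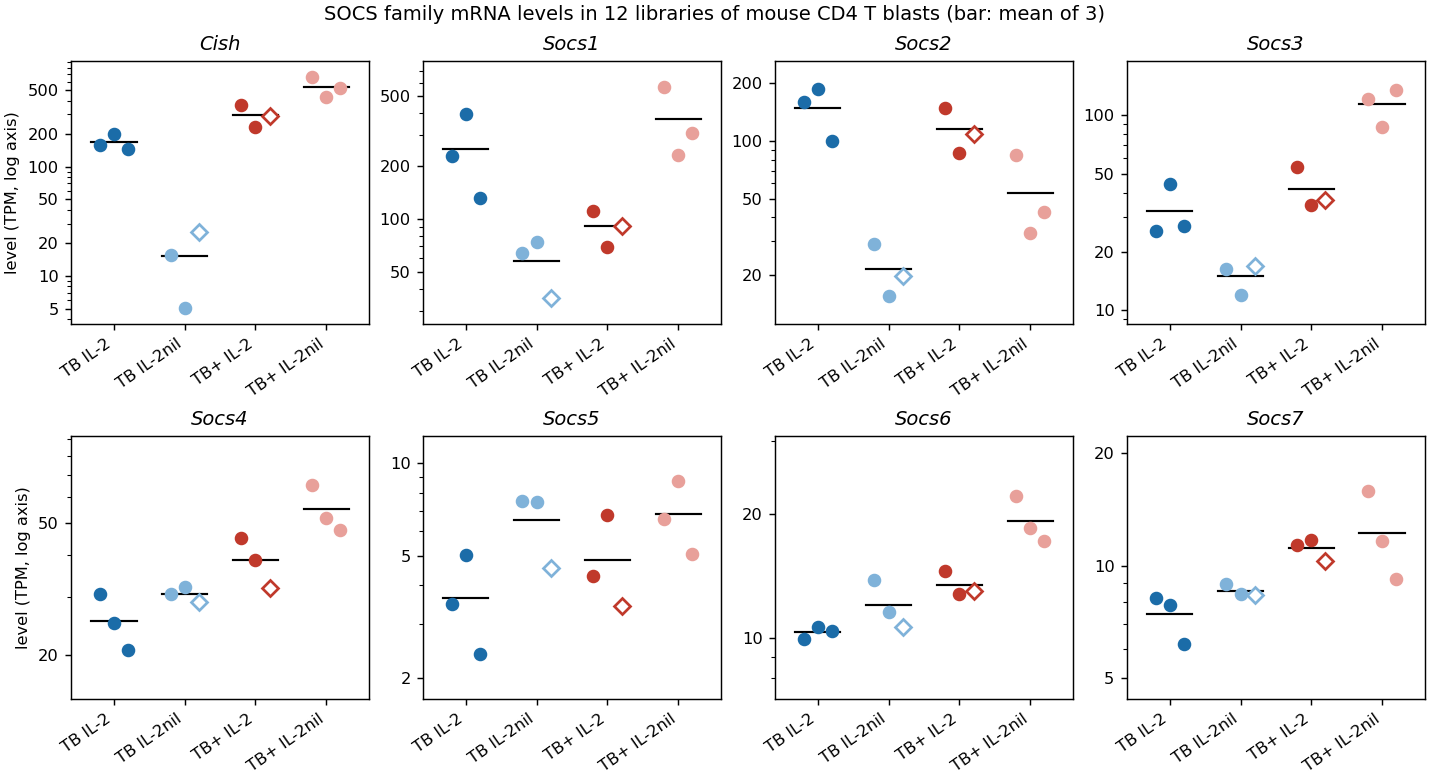
Level of each SOCS family gene in TPM (vertical log axes, scaled separately for each gene) in the 12 libraries, with replicates 1, 2 and 3 from left to right, bars at the means of 3, and open diamonds for the 2 libraries placed against their label. *Cish*, *Socs1*, *Socs2* and *Socs3* are lowest in TB IL-2nil, and *Socs5*, *Socs6* and *Socs7* reach at most 22.0 TPM in any library.

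The abundance of the family differed between groups. The 8 genes together were at 646 ± 216 TPM (SD, n = 3) in TB IL-2, 167 ± 17.8 TPM in TB IL-2nil, 610.1 ± 133 TPM in TB+ IL-2 and 1170.3 ± 341 TPM in TB+ IL-2nil. *Socs1* was the most abundant member in the means of TB IL-2 and TB IL-2nil, and *Cish* in those of both PMA/I groups. *Cish* made up 3.06 to 16.7% of the sum in TB IL-2nil and 22.6 to 32.7% in TB IL-2. After PMA/I its share was 46.7 to 49.5% with IL-2 and 42.7 to 49.3% without it. *Socs2* took 17.6 to 25.6% of the sum in the groups with IL-2 and 3.79 to 15.6% in those without.

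The first comparison asks what 16 h without IL-2 did to these genes in T blasts not given PMA/I. *Cish*, *Socs1*, *Socs2* and *Socs3*, the members known for cytokine feedback, were higher in TB IL-2 than in TB IL-2nil, by ratios of means of 10.9, 4.35, 6.96 and 2.14, and *Socs4* to *Socs7* did not pass the test. Thus 4 of 8 members were higher at an adjusted P under 0.05, where 17.3% of all genes tested were higher and 22.3% lower. Of these, 3 exceeded 3-fold, beside 4.69% of all genes higher and 2.73% lower by that rule. No member was lower by limma, against 1 (*Socs5*) at an unadjusted P under 0.05. The 3 libraries of one group lay wholly above those of the other for the same 4 members and wholly below for 2 (*Socs6* and *Socs7*), as they did for 22.8% and 30.4% of all genes. In the deposited FPKM values these 2 separations were absent. There *Socs7* was higher with IL-2, at 2.58 to 3.12 in TB IL-2 and 2.31 to 2.43 in TB IL-2nil. *Socs6* overlapped, at 3.49 to 4.46 in TB IL-2 and 3.09 to 3.74 in TB IL-2nil. The median log2 difference of the 8 was 0.41, beside -0.13 for all genes.

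*Cish* (chromosome 9 from 107198357 to 107205115, plus strand, mm9, GENCODE M1, as for all genes below) was at 157, 197 and 145 TPM in TB IL-2 and at 15.5, 5.11 and 25.1 TPM in TB IL-2nil, for replicates 1, 2 and 3. The groups do not overlap, and the lowest TB IL-2nil value is in the library of least depth. The log2(TPM + 1) difference was 3.59 (SE 0.43, adjusted P = 0.00018, limma with Benjamini-Hochberg adjustment over all genes, as for every adjusted P below), larger than the spread between libraries. It ranked 23rd from the top of the 12442 genes by size. It was 4.04 (adjusted P = 0.000585) without both moved libraries and 2.43 as labelled (adjusted P = 0.505).

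*Socs2* (chromosome 10 from 94847996 to 94879814, minus strand) was at 159, 187 and 99.7 TPM in TB IL-2 and at 28.9, 15.5 and 19.7 TPM in TB IL-2nil. The lowest library with IL-2 was above the highest without it. Its difference was 2.74 (SE 0.37, adjusted P = 0.000358), with 2.70 (adjusted P = 0.00347) when both moved libraries were left out and 1.93 (adjusted P = 0.379) as labelled.

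*Socs1* (chromosome 16 from 10783901 to 10785629, minus strand) was at 228, 396 and 132 TPM in TB IL-2 and at 63.8, 74.5 and 35.5 TPM in TB IL-2nil. Replicate 2 is the highest and replicate 3 the lowest library of both groups, and the groups do not overlap. The difference was 2.03 (SE 0.44, adjusted P = 0.00434), or 1.71 (adjusted P = 0.0261) without both libraries and 1.58 (adjusted P = 0.262) as labelled. *Socs3* (chromosome 11 from 117827393 to 117831361, minus strand) was at 25.4, 44.2 and 27.0 TPM against 16.3, 12 and 16.9 TPM, again without overlap. Its difference of 1.02 (SE 0.26, adjusted P = 0.0109) was the smallest of the 4, and became 1.10 (adjusted P = 0.0271) without both libraries and 0.66 (adjusted P = 0.635) as labelled. Without scaling beyond TPM it was 0.94 (adjusted P = 0.0511).

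The other members did not pass the test on IL-2 withdrawal. *Socs4* (chromosome 14 from 47896606 to 47915773, plus strand) differed by -0.28 (adjusted P = 0.268, 95% interval -0.69 to 0.14). *Socs6* (chromosome 18 from 88834616 to 89096873, minus strand) and *Socs7* (chromosome 11 from 97223865 to 97259856, plus strand) each differed by -0.19, with adjusted P values of 0.319 and 0.43. *Socs5* (chromosome 17 from 87507019 to 87536923, plus strand), the scarcest member, was at 3.48, 5.03 and 2.39 TPM with IL-2 and at 7.52, 7.49 and 4.57 TPM without it. The groups overlap, but within each replicate number the library with IL-2 was the lower one. The difference of -0.71 (SE 0.29) had an adjusted P = 0.0713, which fell to 0.002 with the replicate number as a block. The adjusted P also fell to 0.0451 without TB IL-2 replicate 2 (difference -0.93) and to 0.0415 without TB IL-2nil replicate 3, the library labelled TB+ IL-2 replicate 3 (-0.92), and was 0.0413 without both moved libraries (-0.92).

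**Figure D2:**
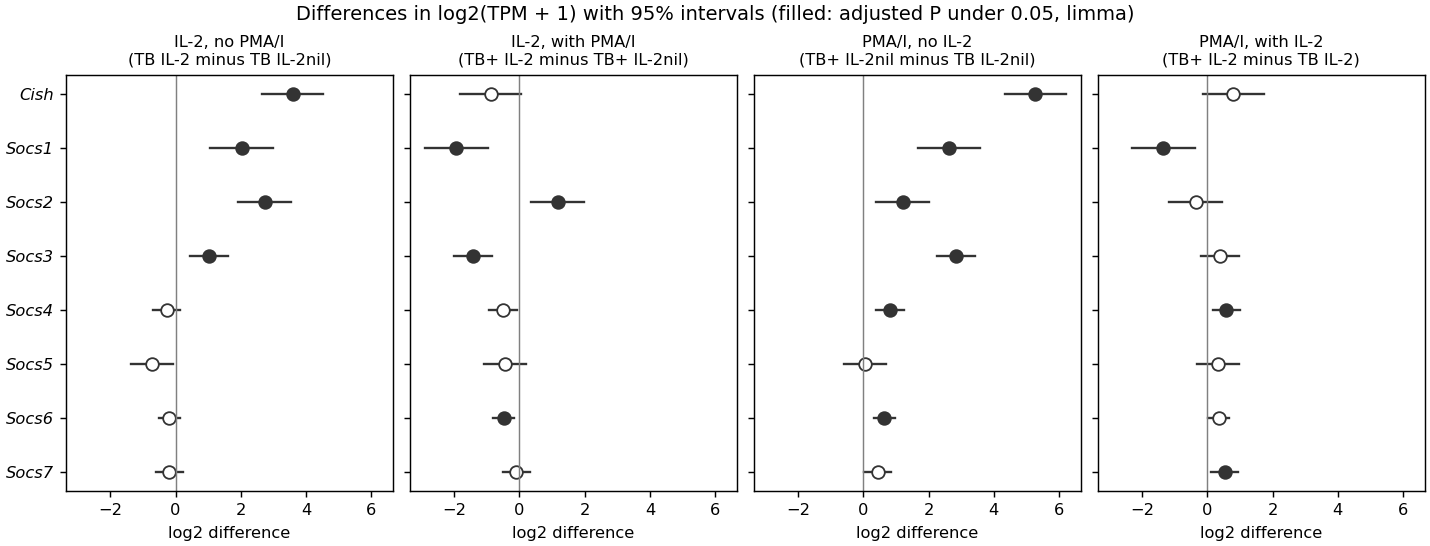
Difference in log2(TPM + 1) of each SOCS family gene (horizontal axes) in the 4 comparisons of 2 groups, with 95% intervals from limma and filled points at an adjusted P under 0.05. For *Socs1* the IL-2 difference is 2.03 without PMA/I and -1.94 with it, and for *Socs3* it is 1.02 and -1.43, while *Socs2* is above 0 in both.

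The second comparison asks what 2 h of PMA/I did to the family in cells kept without IL-2. Of the 8 members, 6 rose in TB+ IL-2nil over TB IL-2nil, namely *Cish*, *Socs1*, *Socs2*, *Socs3*, *Socs4* and *Socs6*, where 20.1% of all genes tested rose and 41.1% fell. The ratios of means were 35.4 for *Cish*, 7.62 for *Socs3*, 6.40 for *Socs1*, 2.50 for *Socs2*, 1.80 for *Socs4* and 1.60 for *Socs6*. Rises of more than 3-fold were seen for *Cish*, *Socs1* and *Socs3* and for 7.78% of all genes, while 10.7% fell by as much. The groups did not overlap for 7 members, all but *Socs5*, each higher after PMA/I, beside 21.8% of all genes higher and 42.3% lower. The median log2 difference of the 8 was 1.01, beside -0.38 for all genes.

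*Cish* was at 659.7, 432 and 524 TPM in TB+ IL-2nil, far above the highest TB IL-2nil library (25.1 TPM). Its difference was 5.27 (SE 0.43, adjusted P = 3.78e-06). *Socs3* reached 121, 87.1 and 135 TPM, with a rise of 2.76 to 2.93 within each replicate number and of 2.84 in the fit (SE 0.26, adjusted P = 8.64e-06). *Socs1* was at 568, 232 and 311 TPM, with a difference of 2.62 (SE 0.44, adjusted P = 0.000373). All 3 genes were without overlap between the groups. With both moved libraries left out these differences were 5.72, 2.92 and 2.30 for *Cish*, *Socs3* and *Socs1*, all with adjusted P values of 0.00349 or less. As labelled they were 4.11 (adjusted P = 0.0739), 2.48 (adjusted P = 0.0294) and 2.17 (adjusted P = 0.0397).

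The rise of *Socs2* was smaller and less firm. It was at 84.6, 33.1 and 42.6 TPM in TB+ IL-2nil, above all TB IL-2nil libraries, with a difference of 1.21 (SE 0.37, adjusted P = 0.0144). The adjusted P passed 0.05 without TB IL-2nil replicate 2 (1.02, adjusted P = 0.0569), without TB+ IL-2nil replicate 1 (0.83, adjusted P = 0.0598), without both moved libraries (1.17, adjusted P = 0.0535) and with no filter on low values (1.21, adjusted P = 0.0556). *Socs4* was at 65.4, 51.9 and 47.7 TPM against 30.6, 32.1 and 28.9 TPM, a difference of 0.82 (adjusted P = 0.00317), or 0.77 (adjusted P = 0.0137) without both libraries. *Socs6* was at 22.0, 18.4 and 17.2 TPM against 13.8, 11.5 and 10.6 TPM, a difference of 0.64 (adjusted P = 0.00313) that varied only from 0.635 to 0.646 within the replicate numbers, or 0.56 (adjusted P = 0.0243) without both libraries. As labelled, *Socs2* differed by 0.41 (adjusted P = 0.734), *Socs4* by 0.77 (adjusted P = 0.0717) and *Socs6* by 0.55 (adjusted P = 0.0968).

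*Socs7* differed by 0.44 (adjusted P = 0.0604), and by the same amount with an adjusted P = 0.0217 with the replicate block. It also passed with quantile normalization (0.87, adjusted P = 0.00175) and with median-of-ratios scaling (0.65, adjusted P = 0.0104), so that 7 members were called under each of these scalings. Without scaling beyond TPM *Socs7* differed by -0.073 (adjusted P = 0.823), with the other sign. Without TB+ IL-2nil replicate 3 its difference was 0.61 (adjusted P = 0.0131). *Socs5* differed by 0.055 (adjusted P = 0.884, 95% interval -0.58 to 0.69), and the sign of this small difference was the other one without TB IL-2nil replicate 3 (-0.15) and without TB+ IL-2nil replicate 2 (-0.12).

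These rises depend in part on how the libraries are set against each other. Short non-coding RNAs took 33.0 to 53.2% of the TPM in TB+ IL-2nil and 16.6 to 43.8% in the other groups, and TB+ IL-2nil replicate 1, with 53.2% and the lowest 75th percentile of all libraries (20.3 TPM), also held the highest level of *Cish*, *Socs1*, *Socs2*, *Socs4*, *Socs6* and *Socs7* in its group. When these RNAs were left out before the rescaling, all of the calls stood. With no scaling beyond TPM, the median of all genes shifted from -0.38 to -0.78. *Socs2* (0.67), *Socs4* (0.27) and *Socs6* (0.11) then did not pass, and *Cish*, *Socs1* and *Socs3* did. Relative to the median of all genes, the difference of *Cish* was 5.34 to 5.71 over 5 scalings, that of *Socs3* 2.96 to 3.27, that of *Socs1* 2.47 to 3.05, that of *Socs2* 1.38 to 1.64, that of *Socs4* 0.90 to 1.25 and that of *Socs6* 0.89 to 1.10.

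The same stimulus in cells kept in IL-2 is the third comparison, and 3 members passed the test, with *Socs4* (difference 0.59) and *Socs7* (0.53) higher in TB+ IL-2 than in TB IL-2 and *Socs1* lower (-1.34), beside 11.8% of all genes higher and 23.3% lower. None of the 3 exceeded 3-fold, which 3.94% of all genes did upward and 3.1% downward. The groups did not overlap for 4 members higher after PMA/I (*Cish*, *Socs4*, *Socs6* and *Socs7*) and for *Socs1*, lower, beside 16.6% and 35.1% of all genes. The split of 2 higher and 1 lower became 3 and 0 with median-of-ratios scaling, 3 and 1 with quantile normalization, and 0 and 1 without scaling beyond TPM.

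*Socs1* fell to 112, 69.7 and 91.6 TPM in TB+ IL-2 from 228, 396 and 132 TPM, with no overlap between the groups, and the ratio of means was 2.77. The adjusted P of its difference of -1.34 (SE 0.44) was 0.0339. It was over 0.05 when any of 4 libraries was left out, with -1.34 without TB IL-2 replicate 1, -0.95 without TB IL-2 replicate 2, -1.16 without TB+ IL-2 replicate 2 and -1.36 without TB+ IL-2 replicate 3 (labelled TB IL-2nil replicate 3). The difference was -1.36 (adjusted P = 0.0609) without both moved libraries and, as labelled, -1.79 (adjusted P = 0.144), so its direction was kept and its call was not. The call was also lost with median-of-ratios scaling (-1.18, adjusted P = 0.0592), with no filter (adjusted P = 0.118) and with only the 2 groups in the fit (adjusted P = 0.0506).

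*Socs4* was at 45.0, 38.8 and 31.8 TPM in TB+ IL-2 against 30.4, 25 and 20.6 TPM, with the lowest TB+ IL-2 library just above the highest TB IL-2 one. Its adjusted P of 0.0329 rose to between 0.0696 and 0.125 without TB IL-2 replicate 2 or 3 or without TB+ IL-2 replicate 1 or 2 (differences of 0.46 to 0.59), and was 0.0327 without both moved libraries (0.72), 0.335 as labelled (0.54), 0.0611 with no filter and 0.0636 with only the 2 groups in the fit. *Socs7* was at 11.4, 11.7 and 10.3 TPM against 8.22, 7.85 and 6.18 TPM, with an adjusted P = 0.0453. Its call was lost when any 1 of 10 libraries was left out, all but TB+ IL-2nil replicates 1 and 3 (differences of 0.42 to 0.60, adjusted P values of 0.0543 to 0.156). Left without both moved libraries, *Socs7* differed by 0.58 (adjusted P = 0.0805), and as labelled by 0.44 (adjusted P = 0.449).

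*Cish* was at 363, 229 and 290.4 TPM in TB+ IL-2, all above the 145 to 197 TPM of TB IL-2, but its difference of 0.80 (SE 0.43, adjusted P = 0.167, 95% interval -0.13 to 1.74) did not pass. It passed without TB IL-2nil replicate 2, a library outside the comparison (0.81, adjusted P = 0.0323), and with only the 2 groups in the fit (0.80, adjusted P = 0.0324). *Socs2* differed by -0.36 (adjusted P = 0.484, 95% interval -1.17 to 0.46) and *Socs3* by 0.39 (adjusted P = 0.281, 95% interval -0.19 to 0.97), both with overlapping groups. *Socs6* differed by 0.35, with an adjusted P = 0.0876 that fell to 0.042 with the replicate block. It passed with quantile normalization (0.64, adjusted P = 0.00842) and with median-of-ratios scaling (0.50, adjusted P = 0.0237). *Socs5* differed by 0.33 (adjusted P = 0.405).

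The last comparison of 2 groups asks how IL-2 bore on the family once PMA/I had been given. *Socs1*, *Socs3* and *Socs6* were lower in TB+ IL-2 than in TB+ IL-2nil and *Socs2* was higher, so that 3 members were lower and 1 was higher where 8.4% of all genes were lower and 12.9% higher. Under quantile normalization the split was 3 lower and 0 higher by limma, with *Socs2* at an adjusted P = 0.0504. *Socs1* alone exceeded 3-fold, as 0.41% of all genes did in this direction and 3.21% in the other. The groups did not overlap for *Socs2*, higher with IL-2, and for 5 members lower with it (*Cish*, *Socs1*, *Socs3*, *Socs4* and *Socs6*), beside 18.9% and 18.3% of all genes.

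*Socs1* was at 112, 69.7 and 91.6 TPM with IL-2 and at 568, 232 and 311 TPM without it, a ratio of means of 4.07 in favour of the cells without IL-2. The groups do not overlap and the difference was -1.94 (SE 0.44, adjusted P = 0.0107), the 64th lowest of 12442 genes. *Socs3* was at 54.3, 34.8 and 36.7 TPM with IL-2 and at 121, 87.1 and 135 TPM without it, a ratio of means of 2.73. The difference of -1.43 (SE 0.26, adjusted P = 0.00384) exceeded the spread between libraries. Both calls stood in every alternative that kept the placement, with adjusted P values up to 0.0491 for *Socs1* and 0.0498 for *Socs3*. The values without both moved libraries were -1.95 (adjusted P = 0.0374) for *Socs1* and -1.35 (adjusted P = 0.0297) for *Socs3*, and as labelled -2.38 (adjusted P = 0.0653) and -1.79 (adjusted P = 0.106).

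*Socs2* was at 149, 86.5 and 109 TPM with IL-2 and at 84.6, 33.1 and 42.6 TPM without it, and the lowest library with IL-2 was just above the highest without. The difference was 1.17 (SE 0.37, adjusted P = 0.0444). Its adjusted P was over 0.05 when any 1 of 9 libraries was left out, all but TB IL-2 replicate 3, TB IL-2nil replicate 1 and TB+ IL-2nil replicate 1 (differences of 0.89 to 1.35, adjusted P values up to 0.129). It was 0.133 without both moved libraries (1.19), 0.852 as labelled (0.37), 0.143 with no filter, 0.0575 with a pseudocount of 0.1 and 0.0987 with only the 2 groups in the fit.

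*Socs6* was at 14.5, 12.8 and 13.0 TPM with IL-2 and at 22.0, 18.4 and 17.2 TPM without it, and the difference of -0.48 (SE 0.15) had an adjusted P = 0.0401. In the deposited FPKM values *Socs6* was at 4.57 to 4.6 in TB+ IL-2nil, within the 4.17 to 5.03 of TB+ IL-2, and without scaling beyond TPM the difference was -0.11 (adjusted P = 0.887), so the call came with the scaling between libraries. It was also lost when any 1 of 9 libraries was left out, all but TB IL-2nil replicates 1 and 3 and TB+ IL-2nil replicate 3 (differences of -0.54 to -0.38, adjusted P values up to 0.139). *Socs6* was at -0.46 (adjusted P = 0.135) without both moved libraries and at -0.57 (adjusted P = 0.173) as labelled.

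*Cish* differed by -0.91 to -0.85 within the replicate numbers, and the fitted difference of -0.87 (SE 0.43) had an adjusted P = 0.17. In the deposited FPKM values its range was 74.8 to 113 with IL-2 and 108 to 139 without it, so the groups overlapped before scaling. Without TB IL-2nil replicate 2, which is not part of the comparison, the same difference had an adjusted P = 0.036. *Socs4* differed by -0.50 (adjusted P = 0.0818) and *Socs5* by -0.44 (adjusted P = 0.307), and with the replicate block these had adjusted P values of 0.0154 and 0.0304. Before scaling the groups of *Socs4* overlapped too, with FPKM of 12.3 to 13.9 with IL-2 and 12.7 to 13.6 without it. Without scaling beyond TPM *Socs4* differed by -0.12 (adjusted P = 0.884). *Socs7* differed by -0.10 (adjusted P = 0.746), and by 0.091 without TB+ IL-2nil replicate 1.

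The difference between the IL-2 effects with and without PMA/I was tested as an interaction. It was below 0 for *Cish* (-4.46, SE 0.60, adjusted P = 0.0108), *Socs1* (-3.96, SE 0.62, adjusted P = 0.0125) and *Socs3* (-2.45, SE 0.37, adjusted P = 0.0122). These are 3 of 8 members, where 2.66% of all genes tested were called in this direction and 1.57% in the other, and they rank 19th, 24th and 96th from the bottom of 12442 genes. Over all genes these shares stand for 331 and 195 genes, and leaving out any library but TB IL-2 replicate 1 moved at least 1 of these numbers by over 1.5 times, with 63 and 21 without TB IL-2nil replicate 2 as the fewest in both directions and 640 and 662 without TB+ IL-2nil replicate 3 as the most. For *Socs1* and *Socs3* the IL-2 effect passed the test in both settings with opposite signs. For *Cish* it was large in TB cells and did not pass after PMA/I. *Socs2* had an interaction of -1.57 (SE 0.52, adjusted P = 0.11), which passed with the replicate block (adjusted P = 0.034). The interactions of *Socs4*, *Socs5*, *Socs6* and *Socs7* were between -0.29 and 0.28, with adjusted P values of 0.438 or more.

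The 3 called interactions stayed at -1.98 or lower in every alternative with this placement, and leaving out any single library left all 3 calls in place. Leaving out both moved libraries gave -4.92 (adjusted P = 0.0306) for *Cish*, -3.66 (adjusted P = 0.0736) for *Socs1* and -2.45 (adjusted P = 0.0626) for *Socs3*. *Cish* was then the 1 gene called below 0 among 12360 tested, and 3 were called above 0. With the labels as given the estimates are the same, since the exchange of 1 library each way between these groups cancels in the contrast, but the adjusted P was 0.914 for each. Without scaling beyond TPM they were -3.99, -3.49 and -1.98 for *Cish*, *Socs1* and *Socs3*, with adjusted P values of 0.0557, 0.0557 and 0.108, and in that setting 1 gene passed among all 12442. With no filter *Socs1* had an adjusted P = 0.0552, and *Cish* and *Socs3* passed.

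**Figure D3:**
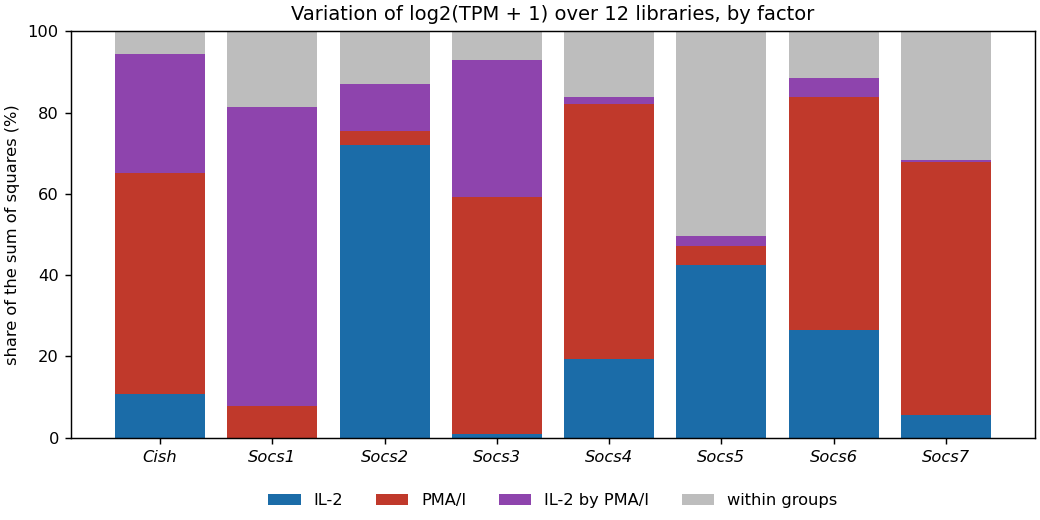
Share of the sum of squares of log2(TPM + 1) over the 12 libraries (stacked bars to 100%) that goes with IL-2, with PMA/I, with their interaction and with the spread within groups, for each SOCS family gene. IL-2 takes 72.0% for *Socs2*, the interaction takes 73.8% for *Socs1*, and PMA/I takes 54.3% to 62.8% for *Cish*, *Socs3*, *Socs4*, *Socs6* and *Socs7*.

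Members therefore divided by the factor their level followed. In *Socs2*, IL-2 accounted for 72.0% of the sum of squares over the 12 libraries and PMA/I for 3.46%, and its order of means was TB IL-2 (149 TPM), TB+ IL-2 (115 TPM), TB+ IL-2nil (53.4 TPM) and TB IL-2nil (21.4 TPM), in which the first 2 did not differ beyond their spread. In *Socs1*, the interaction accounted for 73.8% and IL-2 for 0.0372%. Its order was TB+ IL-2nil (371 TPM), TB IL-2 (252 TPM), TB+ IL-2 (91.1 TPM) and TB IL-2nil (57.9 TPM), with overlap within the upper pair and within the lower pair, comparisons that were not tested. *Cish* (538, 294, 167 and 15.2 TPM) and *Socs3* (115, 41.9, 32.2 and 15.0 TPM) shared the order TB+ IL-2nil, TB+ IL-2, TB IL-2 and TB IL-2nil, with 54.3% and 58.3% for PMA/I and 29.3% and 33.7% for the interaction. In this order the step from TB+ IL-2 to TB IL-2 passed for neither gene, and the step from TB+ IL-2nil to TB+ IL-2 passed for *Socs3* and not for *Cish*. For *Socs4*, *Socs6* and *Socs7*, PMA/I accounted for 62.8%, 57.1% and 62.1%. Without scaling beyond TPM the PMA/I differences of these genes did not pass. They were then 0.51, 0.28 and 0.46 with IL-2 and 0.27, 0.11 and -0.073 without it. For *Socs5* the spread within groups was the largest share, at 50.4%, followed by IL-2 at 42.4%.

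**Figure D4:**
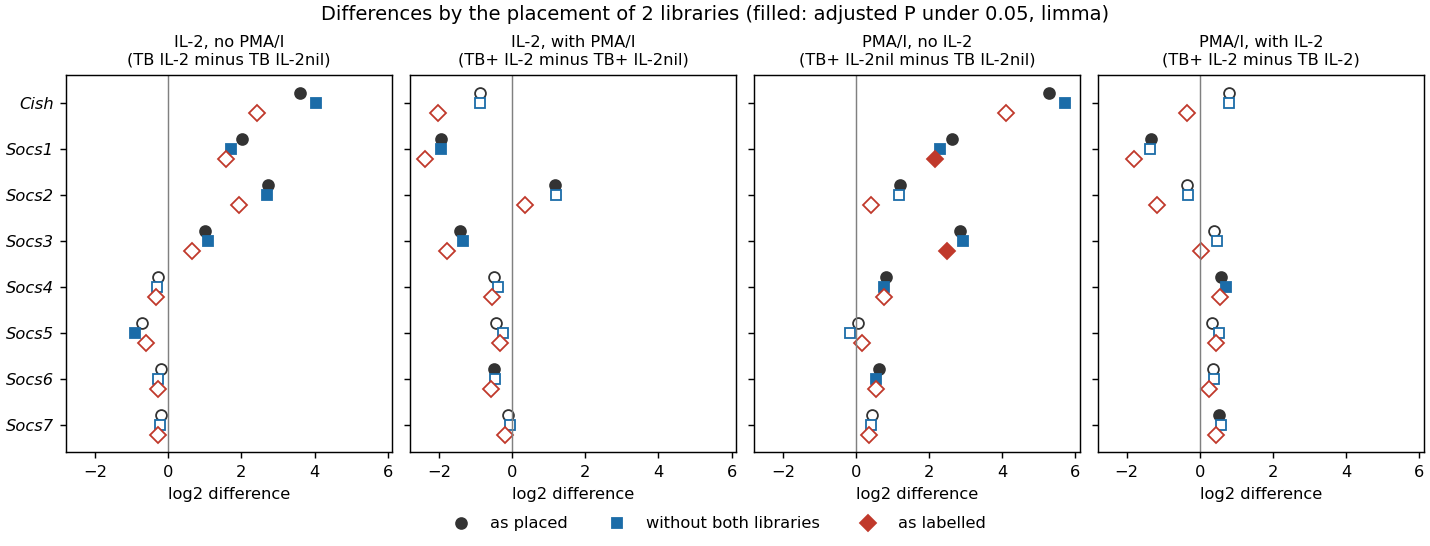
Difference in log2(TPM + 1) of each SOCS family gene (horizontal axes) with the libraries as placed (circles), without both moved libraries (squares) and as labelled (diamonds), filled at an adjusted P under 0.05 by limma. As labelled only *Socs1* (2.17) and *Socs3* (2.48) pass, both in PMA/I without IL-2, and *Cish* falls from 3.59 to 2.43 for IL-2 without PMA/I.

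Across the 12 libraries the log2(TPM + 1) levels of *Socs4*, *Socs6* and *Socs7* ran together, with Pearson correlations of 0.82 to 0.92 between them, as did *Cish* and *Socs3* (0.89). *Socs3* stood at 0.78 with *Socs6*, 0.76 with *Socs1* and 0.74 with *Socs4*. *Socs2* and *Socs5* were the most opposed pair (-0.55). Among 8363 genes with a mean of at least 5 TPM, the profile most like that of *Cish* was shown by *Zmynd19* and *Sqle* (0.98 and 0.97). The same search gave *Rbm15b*, *Upf1* and *Szrd1* for *Socs1* (0.90, 0.90 and 0.89), *Cdk2ap1*, *Hnrnpdl* and *Lrp8* for *Socs2* (0.96, 0.95 and 0.95) and *Vmp1*, *Scaf4* and *Fam98a* for *Socs3* (0.96, 0.96 and 0.95). It gave *Ppp1r16b* and *Ubl3* for *Socs4*, *Cdk7*, *Csnk1g3* and *Papolg* for *Socs5*, *Ercc2*, *Srpr* and *Ubxn4* for *Socs6* and *Nepro*, *Senp2* and *Snapc4* for *Socs7*, with correlations of 0.93 to 0.98. These are descriptions over 12 libraries that share 4 treatments, a scale and their depth, and *Socs1* had the least similar best match.

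The SOCS proteins act at the receptor and its kinases, and genes of that machinery were read in the same libraries. *Il2ra*, the alpha chain, which STAT5 is known to switch on, was at 442 ± 279.7 TPM (SD, n = 3) in TB IL-2, 71.3 ± 11.5 TPM in TB IL-2nil, 761 ± 115 TPM in TB+ IL-2 and 607 ± 57.3 TPM in TB+ IL-2nil. Like *Cish*, *Socs1* and *Socs3* it had an interaction below 0 (-2.13, SE 0.49, adjusted P = 0.0389). Of 8 receptor chains of this cytokine family, 2 were higher with IL-2 in cells without PMA/I (*Il2ra* and *Il2rb*) and 1 was lower (*Il7r*, the IL-7 receptor, -3.54, adjusted P = 0.000406), beside 17.3% and 22.3% of all genes.

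Of 11 JAK and STAT genes, 6 were lower in TB IL-2 than in TB IL-2nil, beside 22.3% of all genes, and 5 did not pass. *Jak1* was at 146 ± 17.4 TPM with IL-2 and 408 ± 34.4 TPM without it (difference -1.48, adjusted P = 0.0004), and *Stat5b* at 33.4 ± 3.66 and 65.3 ± 3.79 TPM (-0.95, adjusted P = 0.00304). *Jak3* (0.26, adjusted P = 0.267) and *Stat5a* (-0.32, adjusted P = 0.511) did not pass. After PMA/I, *Jak1* (-0.89, adjusted P = 0.0117), *Stat5b* (-0.75, adjusted P = 0.0188) and *Stat6* (-0.63, adjusted P = 0.0365) were lower with IL-2, and PMA/I without IL-2 raised *Jak2* by 3.32 and *Stat5a* by 2.05 on the log2 scale, with adjusted P values of 5.18e-06 and 0.000635.

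Genes of the ligase to which a SOCS box binds went both ways with IL-2. The list of 9 genes of subunits and enzymes also takes in *Cul2* and *Rbx1*, of a related ligase with another cullin. Of the 9, 5 were higher in TB IL-2 than in TB IL-2nil, among them *Cul2* (0.82), and 2 were lower. These shares stand beside 17.3% and 22.3% of all genes. *Elob*, elongin B, was at 314, 345 and 369.7 TPM with IL-2 and at 151, 181 and 187 TPM without it. After PMA/I it was at 297, 287 and 369 TPM with IL-2 and at 154, 161 and 161 TPM without it. Its IL-2 difference was 0.99 in both settings (SE 0.15, adjusted P = 0.000711 without PMA/I and 0.00151 with it), and PMA/I did not move it beyond the spread (-0.11 with IL-2 and -0.12 without, adjusted P values of 0.589 and 0.517). *Eloc*, elongin C, was higher by 1.12 (adjusted P = 0.00059) without PMA/I and by 0.49 (adjusted P = 0.06) with it. *Cul5*, the cullin, and *Rnf7*, its RING partner, passed in neither of these comparisons (differences of -0.09 to 0.17). *Arih2*, an E3 ligase known to work with cullin 5, fell with IL-2 (-0.85, adjusted P = 0.00943) and rose with PMA/I (2.22 with IL-2 and 2.23 without, adjusted P values of 3.31e-05 and 1.03e-05).

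In cells without PMA/I no gene of the other JAK-STAT inhibitors passed as higher with IL-2, unlike *Cish* and *Socs1*. Of the 14 kept, 5 were lower in TB IL-2 than in TB IL-2nil, beside 22.3% of all genes, and 9 did not pass. Those with the largest differences were *Stap1* (-1.37), *Cblb*, a ubiquitin ligase that restrains T cell activation (-1.25), and *Pias2* (-0.95), while *Ptpn2*, a phosphatase of JAK1 and JAK3, differed by 0.32 (adjusted P = 0.294). PMA/I without IL-2 raised 5 of 14 and lowered 4, beside 20.1% and 41.1% of all genes, and *Sh2b3*, the adaptor LNK, rose most (2.59). After PMA/I, 3 of the 14 were lower with IL-2 and 0 higher, beside 8.4% and 12.9% of all genes. The lower ones were *Sh2b3* (-1.10), *Cblb* (-1.06) and *Ptprc* (-0.73). The interaction was called for 0 of the 14. Of 22 other genes with a SOCS box, 8 were lower and 1 higher with IL-2 in cells without PMA/I, beside 22.3% and 17.3% of all genes. *Pcmtd2* (-2.51) and *Pcmtd1* (-1.67) were lowest, *Asb2* was higher (1.26), and 12 of the 22 fell with PMA/I in cells without IL-2, where 41.1% of all genes fell. *Wsb1* and *Wsb2* were the largest of 3 that rose there (1.91 and 2.11).

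**Figure D5:**
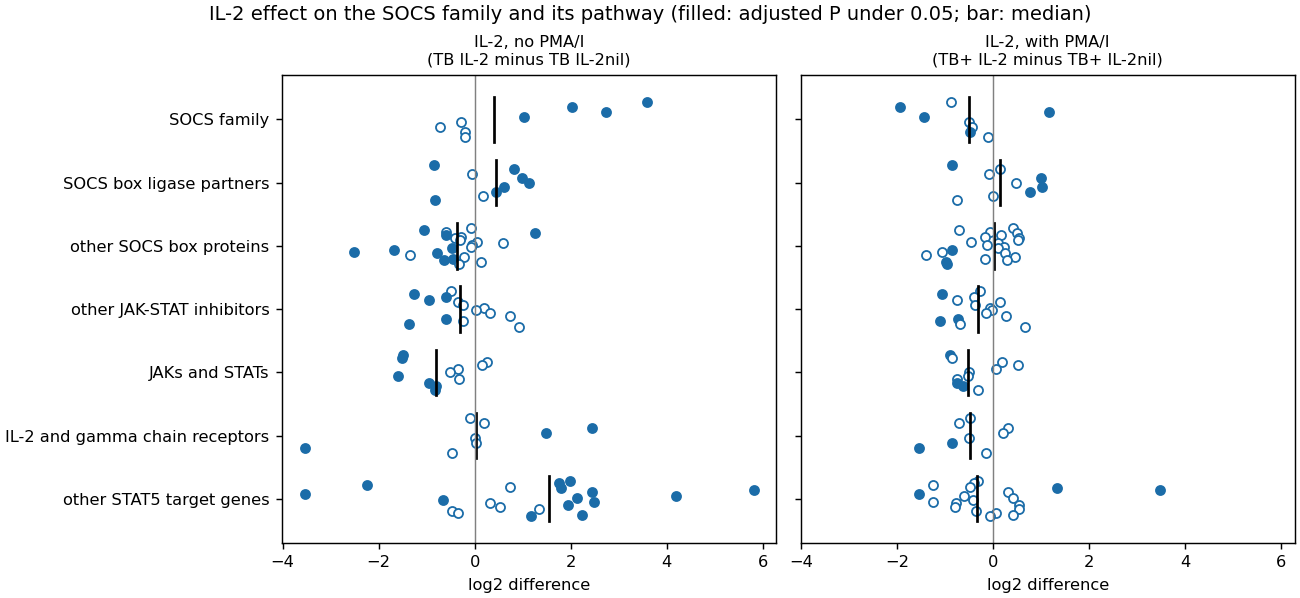
Difference in log2(TPM + 1) between cells with and without IL-2 (horizontal axes) for each gene of 7 lists, without PMA/I (left) and with PMA/I (right), filled at an adjusted P under 0.05 by limma, with bars at the list medians. The median of the SOCS family is 0.41 on the left and -0.49 on the right, and that of the other STAT5 target genes is 1.55 and -0.33.

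A list of 20 other genes known as STAT5 targets was read as well. Like the other lists it was chosen with earlier results of these data known, so its shares are a description. Its genes *Il2ra*, *Il7r*, *Lif* and *Osm* also stand in other lists. In cells without PMA/I, 11 of the 20 were higher with IL-2 and 3 were lower, beside 17.3% and 22.3% of all genes, with a median difference of 1.55. *Gzmb*, granzyme B, was the largest (5.81), followed by *Lif* (4.2) and *Myc* (2.48). The 3 lower ones, *Il7r*, *Bcl6* and *Mcl1*, include genes that STAT5 is known to repress. After PMA/I, 2 were higher (*Gzmb* 3.48 and *Ccnd3* 1.34) and 1 was lower (*Il7r*, -1.54), beside 12.9% and 8.4% of all genes, and the median was -0.33. The interaction was called for 5 of 20, all below 0, beside 2.66% of all genes in this direction and 1.57% in the other. By the rule for names the called ones are *Lif* (-4.80), *Myc* (-3.73), *Bcl2* (-2.29) and *Il2ra*, and the remaining one, *Bcl2l1* (-2.17), was named after its value was seen. As labelled no gene at all passed for the interaction, and without scaling beyond TPM 1 of 12442 did. Without both moved libraries 1 gene of 12360 was called below 0, which was *Cish*, and 3 were called above 0. None of these STAT5 target genes kept its call below 0 in that setting. *Pim1*, a kinase gene, differed by 0.53 (adjusted P = 0.265) with IL-2 in cells without PMA/I and rose by 1.58 and 2.91 with PMA/I in cells with and without IL-2. *Osm*, oncostatin M, was higher with IL-2 (1.95) and fell with PMA/I (-2.54 with IL-2 and -1.13 without).

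PMA/I raised genes of cytokines that signal through JAKs, also in cells without added IL-2. *Il2* was at 0.997 to 4.17 TPM in TB IL-2nil and at 4116 to 8949 TPM in TB+ IL-2nil, beside 3539 to 7657 TPM in TB+ IL-2. In cells without IL-2, PMA/I raised 14 of 17 such genes, beside 20.1% of all genes, with *Il2* (10.79), *Il3* (9.65) and *Il13* (8.87) most, and in cells with IL-2 it raised 13 of 17, beside 11.8% of all genes. After PMA/I, 3 of the 17 were higher with IL-2, which were *Csf2* (1.97), *Il22* (1.78) and *Il3* (1.36). Of all genes 12.9% were higher and 8.4% lower in that comparison. Whether secreted cytokines bear on the SOCS genes at 2 h was not tested. The B cell marker sum was highest in the group where *Cish*, *Socs1*, *Socs2* and *Socs3* were lowest, and its part in these results was not tested.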

How the data were processed

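RNA-Seq values of 12 libraries of mouse CD4 T blasts were analysed. The authors depleted ribosomal RNA and made directional libraries. Trimming was by Trimmomatic 0.32, alignment to the mm9 genome by HISAT2 2.1.0 and quantification of RefSeq genes by StringTie 1.3.3. The deposited values are FPKM, fragments corrected for transcript length and library depth, although the methods name TPM. They hold no read counts, so no counting intervals are given.

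FPKM were converted to TPM with a total of 1000000 per library. Genes never above 1 TPM were dropped, and the 75th percentiles of all libraries were then set to their mean. Using limma 3.58.1 in R 4.3.3, a model of the 4 groups without a block was fitted to log2(TPM + 1), with 8 residual degrees of freedom, and P-values were adjusted by Benjamini-Hochberg over 12442 genes. Genes pass at an adjusted P under 0.05, and the study's rule of more than 3-fold is given beside it. Differences on this scale understate changes of genes with few TPM. The fit was tested on simulated data. Tables and plots were made in Python 3.11.15 (pandas 2.3.3, matplotlib 3.10.9).

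The members, lists, markers and motifs were chosen with earlier results of these data known. Named genes are the 8 members, the 3 list genes with the largest called difference in each direction of a comparison, 12 preset pathway genes, and the 3 genes most correlated with each member, of which some are not reported here. *Elob* and *Eloc* are among the preset genes. Libraries with the same replicate number deviated together from their group means in all 18 pairs (correlations of 0.101 to 0.531), so the replicate block is given where it changes a call. The numbers come from the labels, which do not say what they share. Alternatives covered placement, pseudocount, filter, scaling, short non-coding RNAs, trend, groups in the fit, block and each library left out.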

Additional observations from a re-analysis of the deposited data

Results flagged for a closer look

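For 3 members the effect of IL-2 differed between cells with and without PMA/I by a test of that difference, the interaction in limma. The IL-2 effect with PMA/I minus that without was -4.46 for *Cish*, with 3 of 3 replicate numbers above 0 without PMA/I and 3 of 3 below 0 with it. For *Socs1* it was -3.96 and for *Socs3* -2.45 on the log2(TPM + 1) scale, with the same counts of replicate numbers. The adjusted P values were 0.0108, 0.0125 and 0.0122, and as labelled 0.914 for each of *Cish*, *Socs1* and *Socs3*.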

How the results depend on the processing

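The number of members called was lower in some settings (limma throughout). With the sample labels as given it was 0 of 8 for IL-2 without PMA/I (2 at an unadjusted P under 0.05), 0 for PMA/I with IL-2 (2 unadjusted), 2 for PMA/I without IL-2, 0 for IL-2 with PMA/I (4 unadjusted) and 0 for the interaction (3 unadjusted), against 4, 3, 6, 4 and 3 as placed. Without both moved libraries it was 1 for PMA/I with IL-2, 2 for IL-2 with PMA/I and 1 for the interaction. With no filter it was 0 for PMA/I with IL-2 (4 unadjusted), 5 for PMA/I without IL-2, 3 for IL-2 with PMA/I and 2 for the interaction. With no scaling beyond TPM it was 1 for PMA/I with IL-2, 3 for PMA/I without IL-2 and 0 for the interaction (3 unadjusted). With only the 2 groups compared it was 2 for IL-2 with PMA/I and 2 for PMA/I with IL-2. In the latter *Cish* and *Socs7* passed, and *Socs1* and *Socs4* did not. Leaving out each library in turn gave 0 to 3 for PMA/I with IL-2, with 0 without TB IL-2 replicate 2 or TB+ IL-2 replicate 2 (3 unadjusted each), 2 to 4 for IL-2 with PMA/I, 4 to 5 for IL-2 without PMA/I, 5 to 7 for PMA/I without IL-2 and 3 in each case for the interaction. More members were called under quantile normalization and median-of-ratios scaling for PMA/I without IL-2 (7 each), both adding *Socs7*.

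Directions turned only for differences that were not called. As labelled this was *Cish* for PMA/I with IL-2 (-0.36). Without both moved libraries it was *Socs5* for PMA/I without IL-2 (-0.15). With no scaling beyond TPM it was *Socs5* (-0.42) and *Socs7* (-0.073) for PMA/I without IL-2, *Socs7* (0.26) for IL-2 with PMA/I, and *Socs4* (0.24) and *Socs6* (0.16) for the interaction. With quantile normalization it was *Socs7* for the interaction (-0.027). Leaving out each library in turn gave -0.15 to 0.22 for *Socs5*, PMA/I without IL-2, and for *Socs7* -0.27 to 0.091 for IL-2 with PMA/I and -0.076 to 0.29 for the interaction. The causes were not tested.

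The replicate block left each estimate as it was and added 6 calls, which were *Socs5* for IL-2 without PMA/I, *Socs6* for PMA/I with IL-2, *Socs7* for PMA/I without IL-2, *Socs4* and *Socs5* for IL-2 with PMA/I and *Socs2* for the interaction (-1.57). It changed no other call. A pseudocount of 0.1 changed 1 call of 40, and an intensity trend, a filter on the mean and leaving out short non-coding RNAs changed none. With no counts deposited, the limit of depth at low values such as those of *Socs5* is unknown.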
